A study of Drosophila melanogaster with 46 samples.

Results

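HMS-Beagle, HMS-Beagle2 and Transpac are 3 long terminal repeat (LTR) retrotransposons of the gypsy superfamily in Drosophila melanogaster. They were taken by name from a table of small RNA levels for 124 transposable elements (TEs), and all 3 had values on both strands. Of the 46 samples of the series, 6 libraries hold these values, all from ovarian somatic cells (OSC), a line cultured from the somatic cells of the fly ovary. There were 2 libraries of small RNA from unselected cell RNA (input), 2 of small RNA that came down with an immunoprecipitate of Piwi (Piwi-IP) and 2 with one of CG9754, also called Silencio (CG9754-IP). The labels name no knockdown, allele or agent for these libraries and no antibody or tag for the precipitates. A remark on transfecting cells with siRNAs is attached to every sample, without an siRNA for these 6. No mock precipitate was used here, so the background of a precipitate cannot be subtracted. The sources do not say whether the 2 libraries of each group are separate cultures, and p-values then measure only the spread between these libraries.

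LTR retrotransposons copy themselves through an RNA intermediate that is reverse transcribed and inserted elsewhere in the genome. In the somatic cells of the fly ovary, small RNAs called piRNAs guide Piwi, a nuclear Argonaute protein, to nascent TE transcripts, and the loci are then silenced at the level of chromatin. A piRNA that is antisense to an element can pair with its transcript, whereas a sense small RNA has the sequence of the transcript itself. CG9754 is a partner of Piwi in this silencing step, and the series asks what depleting it does to transcription and to the repressive histone mark H3K9me3. The comparison of the precipitates asks which small RNAs accompany each protein.

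Levels are in RPM, the reads of a TE in each 1000000 reads of its library. The values were whole multiples of 1 step in each library, which gives totals of 12493500 to 26138400 reads, so that 1 read was worth 0.0383 to 0.0800 RPM. Antisense reads made up 94.5% to 94.8% of the TE signal in input and Piwi-IP and 90.5% to 90.6% in CG9754-IP. On the antisense strand the median log2 change over all 75 TEs tested was −0.38 between CG9754-IP and Piwi-IP, and −0.03 once the libraries were rescaled to the same TE total. A list of 18 TEs commonly described as germline targets of the pathway, a check for RNA of germ cells, held 4.35% to 4.45% of antisense TE reads in input and Piwi-IP and 5.24% to 5.52% in CG9754-IP. Its share of sense TE reads moved the other way, from 21.0% to 22.2% in input and Piwi-IP to 19.8% and 18.5% in CG9754-IP. In level, however, the list rose on the sense strand, from 2626 to 2877 RPM in input and Piwi-IP to 3746.4 and 3370.5 RPM in CG9754-IP. Antisense, the list held 9197 to 10527 RPM in input and Piwi-IP and 10000 and 9177 RPM in CG9754-IP. A large part of the sense level of the list was copia, at a mean of 1844 RPM over the 6 libraries. HeT-A, also on the list, had 3.20 to 5.11 RPM sense in input and Piwi-IP and 5.78 and 5.03 in CG9754-IP. Antisense it had 2.12 to 2.74 RPM, and 5.55 and 4.58 in CG9754-IP. The part of the list in the results was not tested, and 0 of the 18 were at 0 RPM on either strand in any library.

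The strand that held most of the small RNAs differed between the elements. HMS-Beagle and HMS-Beagle2 were almost wholly antisense, and Transpac was mostly sense. HMS-Beagle had 4192 and 4030 RPM antisense in the input libraries, 4855 and 4640 in Piwi-IP, and 4652 and 3935 in CG9754-IP. Its sense level was 5.51 and 6.52 RPM in input, 6.11 and 5.68 in Piwi-IP, and 49.96 and 61.4 in CG9754-IP. The antisense values of the 3 groups lie within a narrow band and those of CG9754-IP overlap both other groups, while both CG9754-IP sense values lie far above the other 4 libraries.

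HMS-Beagle2, which the table lists as an element of its own, had the same layout at a lower level. Its antisense level was 3516 and 3473 RPM in input, 4091 and 3875 in Piwi-IP, and 3268 and 3403 in CG9754-IP. On the sense strand it had 4.35 and 4.44 RPM in input, 3.98 and 4.88 in Piwi-IP, and 24.6 and 31.7 in CG9754-IP. Its antisense mean was 1.14 times that of input in Piwi-IP and 0.955 times in CG9754-IP, and neither difference passed in the fit of all 6 libraries below. The sense values rise in CG9754-IP alone. These sense levels rest on 60 to 82 reads in the input and Piwi-IP libraries and on 631 and 643 reads in CG9754-IP. How reads that match both elements were assigned is not given in the sources used here, so HMS-Beagle and HMS-Beagle2 may share reads and are not independent.

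In Transpac the sense strand held most of the reads. Its sense level was 660.2 and 666 RPM in input, 692 and 704 in Piwi-IP, and 446 and 331 in CG9754-IP. Antisense to Transpac there were 41.9 and 48.2 RPM in input, 46.5 and 50.3 in Piwi-IP, and 71.7 and 55.1 in CG9754-IP. Both CG9754-IP libraries lie below the other 4 on the sense strand and above them on the antisense strand. The CG9754-IP replicates differed from each other on both strands, replicate 1 being the higher on each.

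**Figure D1:**
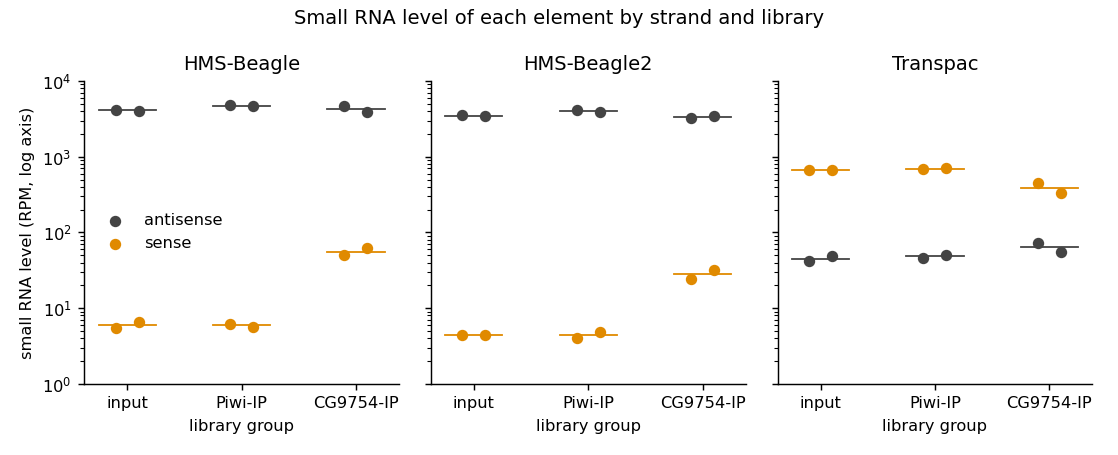
Small RNA level (RPM, log axis) of HMS-Beagle, HMS-Beagle2 and Transpac on the sense and antisense strand in input, Piwi-IP and CG9754-IP. Points are libraries and lines are means of 2 libraries. The CG9754-IP sense points of HMS-Beagle (49.96 and 61.4 RPM) and HMS-Beagle2 (24.6 and 31.7 RPM) lie above those of the other groups, and those of Transpac (446 and 331 RPM) lie below.

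In rank, HMS-Beagle was 11th to 15th of the 124 TEs on the antisense strand in every library and HMS-Beagle2 was 16th in all 6, with 1.91% to 2.57% and 1.64% to 1.94% of the antisense TE signal. Transpac was 47th to 53rd on that strand. On the sense strand Transpac was the 3rd most abundant TE in each input and Piwi-IP library and 5th and 8th in CG9754-IP. Its part of all sense TE reads went from 5.23% to 5.41% in input and Piwi-IP to 2.35% and 1.82% in CG9754-IP. HMS-Beagle moved the other way, from between 0.0435% and 0.0527% of sense TE reads to 0.263% and 0.337%. These levels are not divided by the length of the elements, so the order between elements is one of reads, not of reads per base.

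Between the elements, the antisense level of HMS-Beagle was 1.16 to 1.20 times that of HMS-Beagle2 in the input and Piwi-IP libraries, and 1.42 and 1.16 times in CG9754-IP. The sense ratio of this pair was 1.16 to 1.53 in input and Piwi-IP, and 2.03 and 1.94 in CG9754-IP, above the range of the other 4 libraries. A ratio within a library does not depend on how the library was scaled. With 2 libraries against 2, the smallest p that an exact permutation test of such a single value can give is 0.333, and the difference between the responses of the pair was not tested in another way. The sense level of HMS-Beagle was 0.00807 to 0.00980 of that of Transpac in input and Piwi-IP, and 0.112 and 0.185 of it in CG9754-IP.

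The first comparison is that of CG9754-IP with Piwi-IP on the sense strand. Sense small RNAs of HMS-Beagle and HMS-Beagle2 were several times higher in CG9754-IP, and those of Transpac were lower. HMS-Beagle averaged 55.7 ± 8.11 RPM over the CG9754-IP libraries and 5.89 ± 0.30 over those of Piwi-IP (mean ± SD, n = 2, as in all means that follow). The means differ 9.45-fold, and single libraries differ 8.18-fold to 10.8-fold. HMS-Beagle2 had 28.2 ± 5.06 RPM against 4.43 ± 0.64, a 6.36-fold difference of the means, with 5.04-fold to 7.97-fold between single libraries. Transpac had 389 ± 81 RPM against 698 ± 8.73, so that its mean in CG9754-IP was 0.557 times that in Piwi-IP, with 0.471 to 0.645 times between single libraries.

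In the limma fit over all TEs on log2(RPM + 1), which understates the change of low values, these differences were larger than the spread between replicates. The filter selected HMS-Beagle and HMS-Beagle2 for a difference on this strand. Their p-values and ranks here are no support by themselves, and values with no filter follow in the next paragraph. HMS-Beagle rose by 3.03 ± 0.21 on the log2 scale (SE, adjusted p = 5.2e-13) and HMS-Beagle2 by 2.42 ± 0.26 (adjusted p = 3.0e-09), while Transpac changed by −0.86 ± 0.12 (adjusted p = 2.5e-07). All p-values adjusted here follow Benjamini-Hochberg over every TE tested in the comparison, with 0.05 as the threshold. Of the 53 TEs tested, 45.3% were called higher and 22.6% lower in CG9754-IP, so calls in either direction were common. HMS-Beagle ranked 4th and HMS-Beagle2 10th from the top of the 53 changes, and Transpac ranked 4th from the bottom. The median of the 53 was 0.15, and 0.49 after rescaling to the same TE total, where the changes were 3.35, 2.73 and −0.51 and the split of 24 higher and 12 lower became 29 and 7.

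TEs were tested where the mean of the 6 libraries reached 10 RPM. HMS-Beagle (22.5 RPM) and HMS-Beagle2 (12.3 RPM) passed on the sense strand only through CG9754-IP, and so had to differ there, while Transpac (583 RPM) passed in every group. With no filter, all 124 TEs were tested and 28.2% were called higher. HMS-Beagle then had an adjusted limma p of 1.5e-04, HMS-Beagle2 one of 3.9e-04 and Transpac one of 0.0073, with the same log2 changes. A pseudocount of 10 RPM lowered the change of HMS-Beagle2 to 1.40.

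Antisense small RNAs moved far less between these precipitates. HMS-Beagle averaged 4294 ± 507 RPM with CG9754 and 4748 ± 151 with Piwi, and its log2 change of −0.15 ± 0.093 did not pass (adjusted p = 0.198, 95% interval −0.38 to 0.084). HMS-Beagle2 was lower in CG9754-IP, at 3336 ± 95 against 3983 ± 153 RPM (−0.26 ± 0.060, adjusted p = 0.0130). Transpac had 63.4 ± 11.7 against 48.4 ± 2.69 RPM (0.37 ± 0.15, adjusted p = 0.0801). Of the 75 TEs tested on this strand 53.3% were called lower and 9.33% higher, so the 1 call among the 3 elements, a lower one, lies in the more common direction. With TE totals made equal the split of 7 higher and 40 lower became 16 and 16.

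The antisense signs of HMS-Beagle and HMS-Beagle2 depended on the scaling. Relative to the median of all TEs tested, the log2 changes were 0.23 for HMS-Beagle, 0.12 for HMS-Beagle2 and 0.75 for Transpac, all above it. With TE totals made equal they were 0.20 (adjusted p = 0.0944), 0.093 (adjusted p = 0.289) and 0.72 (adjusted p = 0.0125), so that Transpac was called higher and HMS-Beagle2 lost its call. HMS-Beagle2 also lost the call when limma was fitted to only the 2 groups compared (adjusted p = 0.0562), and stood at −0.22 without Piwi-IP replicate 1. HMS-Beagle stood at −0.27 without CG9754-IP replicate 1, and Transpac at 0.56 without CG9754-IP replicate 2. A fit without a library leaves 1 library in its group, which then adds nothing to the estimate of the spread. For such fits only the changes are given here.

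**Figure D2:**
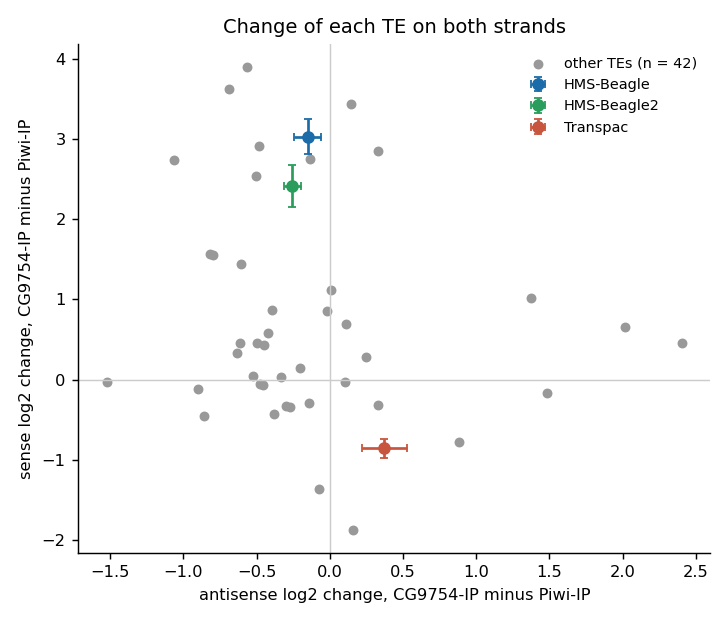
Antisense (horizontal) and sense (vertical) log2 change from Piwi-IP to CG9754-IP of the 45 TEs tested on both strands. Grey points are the other 42 TEs, and bars on the 3 named elements are standard errors of the limma fit. HMS-Beagle and HMS-Beagle2 lie high at 3.03 and 2.42 on the sense axis and near 0 on the antisense axis, where their negative sign turns when libraries are rescaled to the same TE total, and Transpac lies at −0.86 and 0.37.

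The balance between the strands, as a share of reads, puts both changes on a scale that does not move with the library total. Sense reads were 0.131% and 0.162% of all HMS-Beagle reads in input, 0.126% and 0.122% in Piwi-IP, and 1.06% and 1.54% in CG9754-IP. The exact (Clopper-Pearson) 95% intervals for the CG9754-IP libraries were 1.01% to 1.12% and 1.45% to 1.63%. They do not overlap, so the replicates differed by more than counting error. These intervals hold for counting error alone, because PCR copies of a molecule cannot be told from separate molecules here.

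Of HMS-Beagle2 reads, 0.123% and 0.128% were sense in input, 0.0973% and 0.126% in Piwi-IP, and 0.747% and 0.924% in CG9754-IP. The counting intervals of the 4 input and Piwi-IP shares overlap, and both CG9754-IP shares lie above them. Put the other way, there were 794 to 1027 antisense reads for each sense read of HMS-Beagle2 in Piwi-IP, and 107 to 133 in CG9754-IP. Even there, antisense reads remained over 98% of the reads of either element, at 98.5% to 98.9% for HMS-Beagle and 99.1% to 99.3% for HMS-Beagle2.

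For Transpac the minor strand is the antisense one. It held 5.97% and 6.75% of the reads in input, 6.30% and 6.67% in Piwi-IP, and 13.8% and 14.3% in CG9754-IP. The last have intervals of 13.3% to 14.4% and 13.5% to 15.1%, which overlap. An overlap does not show that these shares are equal, and the levels of these replicates differ. Transpac had 14.4 ± 0.62 sense reads for each antisense read with Piwi and 6.12 ± 0.15 with CG9754. Both strands together came to 702 and 714 RPM in input, 738 and 754 in Piwi-IP, and 518 and 387 in CG9754-IP.

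**Figure D3:**
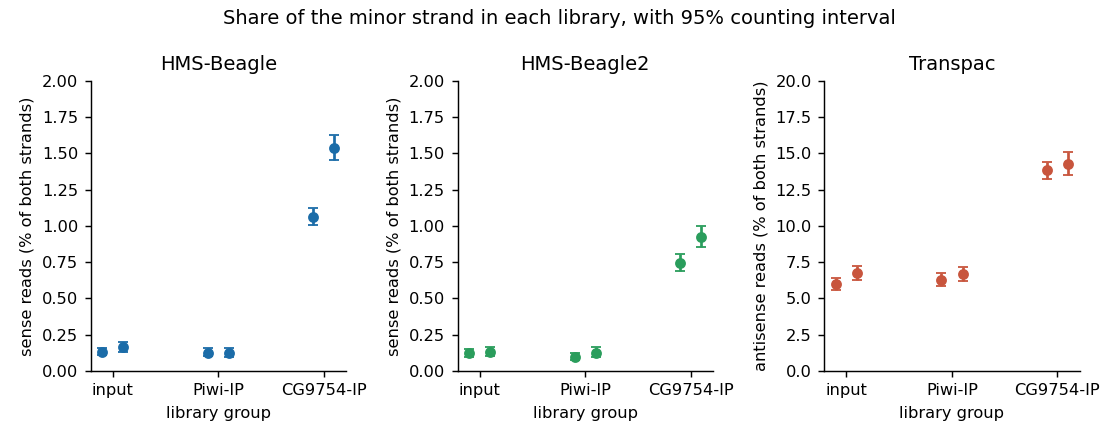
Share of reads on the minor strand (percent of both strands) in each library, sense for HMS-Beagle and HMS-Beagle2 and antisense for Transpac, with exact 95% counting intervals. The vertical axis of Transpac runs 10 times as high as the others. In each element both CG9754-IP libraries lie above the 4 input and Piwi-IP libraries, at 1.06% and 1.54%, 0.747% and 0.924%, and 13.8% and 14.3%.

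Tested as log2((sense + 1)/(antisense + 1)) in the 89 TEs with at least 10 RPM over both strands, the ratio of HMS-Beagle was −9.43 ± 0.017 with Piwi and −6.25 ± 0.38 with CG9754 (SD). Its difference was 3.18 ± 0.20 (SE, limma adjusted p = 2.3e-05). HMS-Beagle2 went from −9.52 ± 0.22 to −6.85 ± 0.21, a difference of 2.67 ± 0.16 (adjusted p = 2.2e-05). Transpac went from 3.82 ± 0.061 to 2.59 ± 0.039, a difference of −1.23 ± 0.13 (adjusted p = 3.0e-04). Because 1 RPM is added to each strand, this measure moves slightly with scaling. With TE totals made equal the differences were 3.15, 2.64 and −1.23, and 65 rather than 70 TEs were called. A pseudocount of 10 RPM gave 2.19, 1.65 and −1.17. Of the 89 TEs, 58.4% were called higher and 20.2% lower. The ratios of all 3 elements moved towards equal strands, from opposite sides, and none crossed to the other side. Such moves were common in the table. Of the 63 TEs with more antisense reads over the 6 libraries, 49 were called higher and 3 lower. Of the 26 with more sense reads, 3 were called higher and 15 lower.

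Across the table, 62 of the 89 TEs had more antisense than sense reads in both Piwi-IP libraries, and 27 had more sense reads. Counted from the most antisense end, HMS-Beagle was 12th to 18th and HMS-Beagle2 11th to 14th over the 6 libraries. Counted from the most sense end, Transpac was 7th to 10th. The ranks in CG9754-IP were 16th and 18th for HMS-Beagle, 12th and 14th for HMS-Beagle2, and 10th and 9th for Transpac.

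**Figure D4:**
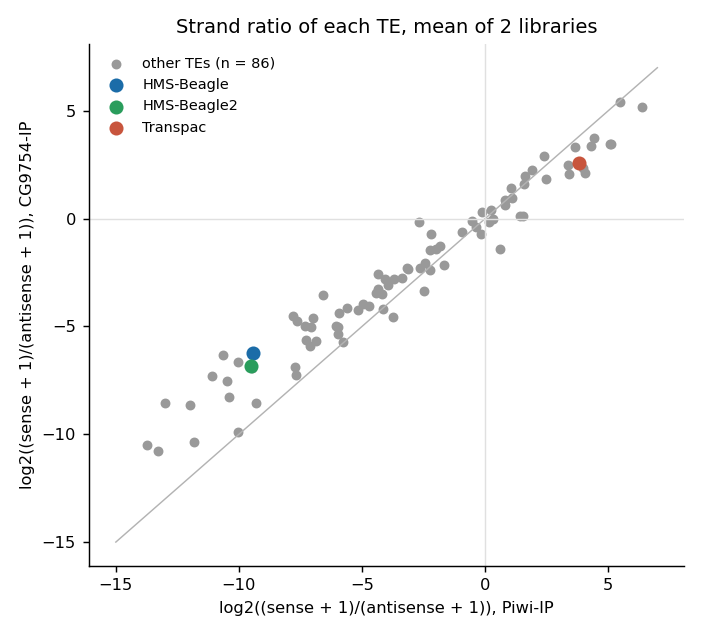
Strand ratio, log2((sense + 1)/(antisense + 1)), of 89 TEs in Piwi-IP (horizontal) and CG9754-IP (vertical), each the mean of 2 libraries. The diagonal marks equal ratios and grey points are the other 86 TEs. HMS-Beagle (−9.43 and −6.25) and HMS-Beagle2 (−9.52 and −6.85) lie above the diagonal on the antisense side, and Transpac (3.82 and 2.59) lies below it on the sense side.

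A division of the TEs by the strand that held most of their reads over the 6 libraries was made after the values had been seen, and is a description. Sense tests covered 30 TEs with more antisense reads, of which 21 rose and 1 fell in CG9754-IP against Piwi-IP, with a median log2 change of 0.86. HMS-Beagle and HMS-Beagle2 are among the 21. Of all 53 TEs tested on the sense strand, 7 averaged under 10 RPM in input and Piwi-IP, and 6 of these were called higher. The other 46 gave 18 rises and 12 falls. Those 7 passed the filter only through CG9754-IP, so counts that include such TEs support nothing by themselves. Of the 23 with more sense reads, 3 rose and 11 fell, with a median of −0.32, and Transpac is among the 11. Not all sense-rich LTR elements fell, since springer, of the gypsy superfamily, rose by 0.66 (adjusted p = 4.2e-14) and copia, of the copia superfamily, by 0.46 (adjusted p = 3.3e-06). Transpac had 91.8% sense reads over the 6 libraries, springer 85.9% and copia 88.4%.

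Against input, CG9754-IP gave like values for the 3 elements. This comparison shares the CG9754-IP libraries with the one against Piwi-IP and is no separate evidence. The filter selected HMS-Beagle and HMS-Beagle2 on the sense strand here as well. On the sense strand the log2 change was 3.01 ± 0.21 for HMS-Beagle (6.02 ± 0.71 RPM in input, adjusted p = 6.2e-13), 2.42 ± 0.26 for HMS-Beagle2 (4.39 ± 0.063 RPM, adjusted p = 2.8e-09) and −0.78 ± 0.12 for Transpac (663 ± 4.00 RPM, adjusted p = 1.1e-06). Of 53 TEs, 45.3% were called higher and 18.9% lower. With no filter, limma called 33.1% of 124 higher, HMS-Beagle (adjusted p = 1.9e-04) and HMS-Beagle2 (adjusted p = 3.6e-04) among them. Transpac was called lower there, with an adjusted p of 0.0117.

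Antisense to the elements, 0 of 3 passed against input by limma, and 1, Transpac, had an unadjusted p under 0.05 (0.0244). Its log2 change was 0.48 ± 0.15 (45.0 ± 4.48 RPM in input, adjusted p = 0.0508), and it passed with TE totals made equal (0.66, adjusted p = 0.0152) and by the median ratio (0.54, adjusted p = 0.0155). HMS-Beagle had 0.058 ± 0.093 (4111 ± 115 RPM, adjusted p = 0.617, 95% interval −0.18 to 0.29), and 0.24 ± 0.081 with TE totals made equal (adjusted p = 0.0555). HMS-Beagle2 had −0.067 ± 0.060 (3494 ± 31 RPM, adjusted p = 0.392, interval −0.22 to 0.083), which turned to 0.12 after rescaling to the same TE total. Without CG9754-IP replicate 2, HMS-Beagle stood at 0.18 and Transpac at 0.66, and without CG9754-IP replicate 1 HMS-Beagle stood at −0.063. Among the 75 TEs, 12% were called higher and 33.3% lower, 9 and 25 TEs, which became 19 and 15 with TE totals made equal. The strand ratio differed from input by 2.95 ± 0.20 in HMS-Beagle, 2.49 ± 0.16 in HMS-Beagle2 and −1.26 ± 0.13 in Transpac (adjusted p = 3.4e-05, 2.9e-05 and 3.1e-04), where 53.9% of 89 TEs were called higher and 18% lower.

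**Figure D5:**
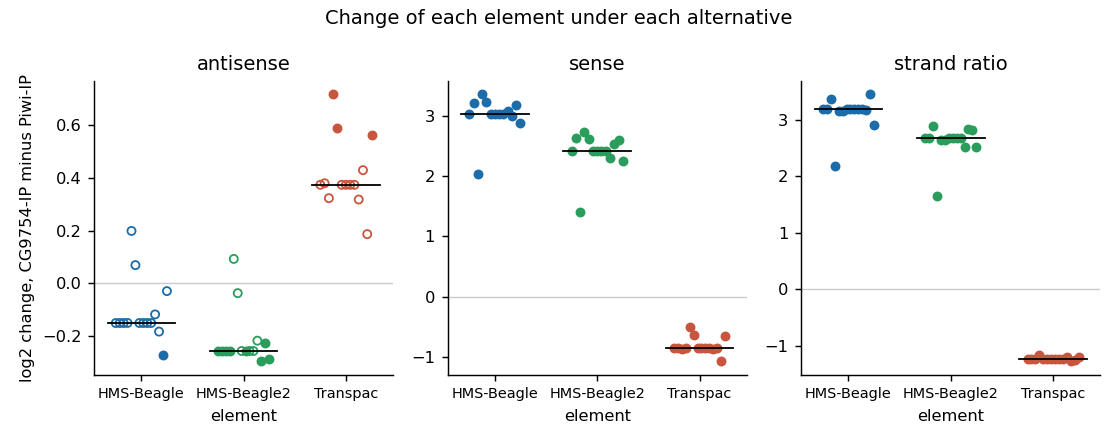
Log2 change from Piwi-IP to CG9754-IP of each element on the antisense strand, the sense strand and their ratio. Black lines are the values reported, points are the other settings tried, and filled points passed the adjusted p threshold of 0.05. On the sense strand HMS-Beagle stayed between 2.04 and 3.35 and Transpac between −1.07 and −0.51, all filled, while the antisense points of HMS-Beagle and HMS-Beagle2 lie on both sides of 0 (−0.27 to 0.20 and −0.29 to 0.093), above 0 under rescaling alone.

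Piwi-IP against input showed small differences. The antisense level of HMS-Beagle was 1.15 times that of input (log2 change 0.21 ± 0.093, adjusted p = 0.211) and that of HMS-Beagle2 was 1.14 times (0.19 ± 0.060, adjusted p = 0.144). A rise was common on this strand, since 90.7% of the changes of the 75 TEs were above 0. The median over the 75 TEs was 0.16, and after rescaling to the same TE total the log2 changes were 0.044 and 0.025. Antisense Transpac changed by 0.10 ± 0.15 (adjusted p = 0.625), or −0.057 after that rescaling. Of the 75 TEs 1.33% were called, and a fit without the CG9754-IP libraries called 45 TEs, with HMS-Beagle (adjusted p = 0.00279) and HMS-Beagle2 (adjusted p = 0.00320) among them. Leaving out CG9754-IP replicate 1 or replicate 2 alone is nearly the same fit, since the 1 library left adds nothing to the spread, and is no further evidence.

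Sense levels in Piwi-IP and input differed by −0.023 ± 0.21 in HMS-Beagle (95% interval −0.46 to 0.42), 0.0059 ± 0.26 in HMS-Beagle2 (−0.53 to 0.54) and 0.073 ± 0.12 in Transpac (−0.17 to 0.31). None of the 3 passed limma (adjusted p = 0.988, 0.988 and 0.855), nor had any an unadjusted p under 0.05, and 3.77% of the 53 TEs were called. The strand ratio differed by −0.23 ± 0.20, −0.18 ± 0.16 and −0.029 ± 0.13 (adjusted p = 0.902, 0.902 and 0.989), with 0.0% of 89 TEs called and 12 at an unadjusted p under 0.05.

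The TEs whose 12 values (both strands in 6 libraries, each strand centred on its mean) lay closest to those of HMS-Beagle were gypsy, blood and gypsy4, with a root mean square difference of 0.20, 0.21 and 0.22 on the log2 scale. HMS-Beagle2 followed in 4th place (0.23) of 44 candidates. For HMS-Beagle2 the closest were gypsy4 (0.20), HMS-Beagle (0.23) and the element 297 (0.23). All of these are gypsy-superfamily elements. Closest to Transpac was a copia-type element with an all-digit name, one of the germline list (0.22), followed by invader3 (0.23) and invader4 (0.27) of the gypsy superfamily. It ranked 42nd of 44 in likeness to HMS-Beagle (1.30) and to HMS-Beagle2 (1.12), against a median candidate at 0.93 and 0.74.

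The other 47 gypsy-superfamily elements of the table give the setting. Of the 27 tested on the sense strand between CG9754-IP and Piwi-IP, 17 rose, 5 fell and 5 did not pass, with a median log2 change of 0.66 against 0.15 over all TEs. This was 63.0% higher and 18.5% lower, beside 45.3% and 22.6% over all TEs. Of these 27, 3 (412, gypsy4 and rover) averaged under 10 RPM in input and Piwi-IP, so that they passed the filter only through CG9754-IP and had to differ. Among the other 24 there were 14 rises and 5 falls, beside 18 and 12 among the 46 such TEs of the whole table. With no filter, 21 of the 47 elements rose and 6 fell, with a median of 0.45 against 0.040 over all 124 TEs. This was 44.7% higher beside 28.2% over all TEs. The largest rise was that of 412, from 3.58 ± 0.19 to 68.3 ± 15.5 RPM (3.90 ± 0.24, adjusted p = 2.3e-14, or 1.4e-04 with no filter). It was followed by mdg1, from 12.4 ± 0.42 to 165 ± 12.1 RPM (3.63 ± 0.16, adjusted p = 1.1e-17, or 2.8e-05 with no filter). Among those that fell, invader2 came first, from 84.4 ± 0.87 to 22.5 ± 4.85 RPM (−1.87 ± 0.15, adjusted p = 1.1e-11, or 5.2e-04 with no filter). Next was invader3, from 109 ± 2.17 to 42.6 ± 10.9 RPM (−1.36 ± 0.16, adjusted p = 1.1e-08, or 0.0030 with no filter). The changes of HMS-Beagle and HMS-Beagle2 lie between the median and the largest rises of their superfamily with and without the filter, and the fall of Transpac was smaller than those of invader2 and invader3.

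Antisense to the same superfamily, 36 elements were tested, of which 1 rose (springer, 2.02 ± 0.16, adjusted p = 4.6e-04) and 22 fell, led by mdg3 (−1.52 ± 0.076, adjusted p = 2.0e-04) and Tirant (−1.34 ± 0.33, adjusted p = 0.0161), with a median of −0.45. The 61.1% that fell is near the 53.3% over all TEs, and with TE totals made equal 5 rose and 11 fell, Tirant no longer among them (−1.01, adjusted p = 0.0645). Against input, 2 rose (springer at 1.99 and gypsy at 0.38) and 15 fell, led by mdg3 (−1.37) and rover (−0.88), with a median of −0.27. This was 41.7% lower beside 33.3% over all TEs, and 7 rose and 11 fell with TE totals made equal. The antisense changes of HMS-Beagle (−0.15 and 0.058) and HMS-Beagle2 (−0.26 and −0.067) in these comparisons were above the medians of the superfamily, though they were not tested against them. In the strand ratio 28 of 39 gypsy-superfamily elements rose and 6 fell between Piwi-IP and CG9754-IP, with a median of 1.27 against 0.61 over all TEs. This was 71.8% higher and 15.4% lower, beside 58.4% and 20.2% over all TEs. The largest rises were again 412 (4.47) and mdg1 (4.31), and the largest falls invader2 (−2.03) and springer (−1.36). The change of invader3 was −1.29. That of Transpac was −1.23, 9th from the bottom of the 89 TEs tested.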

How the data were processed

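Small RNA levels of 124 TEs in 6 libraries were read from 1 deposited table with sense and antisense values. No unit stands in the header. Values as deposited by the authors were taken to be RPM, since all values above 0 in each library were whole multiples of 1 step (within 0.02 reads), and the totals in the text are 1000000 divided by that step. Per the submitters' processing notes, the build was dm3 and the tools were bedtools 2.16.1, SAMtools 0.1.16, cutadapt 1.0 and Bowtie 0.12.7, listed without role or order. Read size, mismatches and the treatment of reads with several matches are not given in the sources used here.

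All 6 libraries entered 1 limma model with a term per group (version 3.58.1 under R 4.3.3, eBayes with trend, two-sided), fitted to log2(RPM + 1). The same fit was run on the strand ratio. A TE was tested if its deposited values averaged 10 RPM or more across the 6 libraries, also when a library was left out. It was tested on simulated data first. Counting intervals used scipy 1.17.1, with pandas 2.3.3, numpy 2.4.6, matplotlib 3.10.9 and Python 3.11.15. Other TEs were named by rule: the 3 nearest in root mean square difference, and the 2 largest rises and falls of the gypsy superfamily, except springer and copia among sense-rich TEs, chosen after their values were seen. The elements and lists were chosen with earlier results of these data known. The deposited table of piRNA cluster windows holds no value per TE and was not used here.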

Additional observations from a re-analysis of the deposited data

How the results depend on the processing

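For the 3 elements 27 changes were tested under up to 14 alternatives, and 14 kept their direction and call under all of them. These include all sense and strand-ratio changes of CG9754-IP against Piwi-IP or input. The antisense changes moved with the scaling, and the cause was not tested. Rescaled to the same TE total, CG9754-IP against Piwi-IP gave 0.20 for HMS-Beagle, 0.093 for HMS-Beagle2 and 0.72 for Transpac. By the median ratio it gave 0.069, −0.037 and 0.59. Against input, HMS-Beagle2 gave 0.12 by TE total, and Transpac passed at 0.66 and 0.54, and at 0.41 with a pseudocount of 10. In Piwi-IP against input, Transpac turned to −0.057 and −0.052 (antisense) and −0.089 and −0.084 (sense), and HMS-Beagle2 to −0.13 and −0.12 (sense), none with a call.

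Fitting only the groups compared left HMS-Beagle2 at −0.26 without a call (CG9754-IP against Piwi-IP), and gave calls at 0.21 for HMS-Beagle and 0.19 for HMS-Beagle2 (Piwi-IP against input), with 45 TEs called there on the antisense strand, 5 on the sense strand and 2 by strand ratio. A filter of 100 RPM left 19 TEs on the sense strand and called 16 of them in either CG9754-IP comparison. The filter of 10 RPM called 36 of 53 against Piwi-IP and 34 of 53 against input. In Piwi-IP against input the filter of 100 RPM called 0 on either strand. No filter called 3 antisense there, and a pseudocount of 10 called 1 by strand ratio. HMS-Beagle and HMS-Beagle2 (sense) and Transpac (antisense) are below the filter of 100 RPM.

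With each library left out in turn, antisense changes from Piwi-IP to CG9754-IP ranged from −0.27 to −0.029 (HMS-Beagle), −0.29 to −0.22 (HMS-Beagle2) and 0.19 to 0.56 (Transpac). Such a fit leaves 1 library in a group, which adds nothing to the estimate of the spread. The counts of TEs called that follow depend on this and are not read as results. Against input they ranged from −0.063 to 0.18 (HMS-Beagle) and 0.29 to 0.66 (Transpac), with 14 (without input replicate 2) to 57 (without CG9754-IP replicate 1) TEs called. From input to Piwi-IP they ranged from 0.17 to 0.24 (HMS-Beagle) and 0.15 to 0.23 (HMS-Beagle2), with 0 to 45 called, 45 without either CG9754-IP library. Sense changes there ranged from −0.13 to 0.081 (HMS-Beagle) and −0.11 to 0.13 (HMS-Beagle2), with 2 to 5 TEs called, and the strand ratio of Transpac from −0.12 to 0.064, with 0 to 2 called. The strand ratio against input called 42 to 68 TEs, 42 without input replicate 2.

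The replicate numbers of the groups are not stated to pair the libraries, and the differences between replicates 1 and 2 correlated between groups at −0.13 to 0.26 over TEs. A replicate block changed no call of the 3 elements, left 45 antisense calls in CG9754-IP against Piwi-IP and gave 1 strand-ratio call in Piwi-IP against input. The negative value was that of Piwi-IP and CG9754-IP on the sense strand. A count test on the implied reads was not run, since no column has the 100 low values that a check of whole reads needed.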
